A study of Rattus norvegicus with 6 samples.

Results

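The genes described here are those of the cytosolic ribosomal proteins, taken as every protein-coding RefSeq gene whose symbol begins with Rpl or Rps. Kinases named Rps6k, Rps19bp1 and pseudogenes were left out. They comprised 83 of 15168 genes that could be named on the array and were measured by 144 of 30367 probes. By symbol alone, 48 were assigned to the large subunit, 31 to the small subunit and 4 to the P-stalk. Brain RNA came from 3 male rats of the SPORTS line, a hyperactive mutant line, and 3 male wild type rats. All 6 animals were 15 weeks old, were of Wistar background and were kept sedentary, and each gave 1 single-colour array. The labels name neither the mutated gene nor the brain region, and nothing in them says whether the animals were littermates.

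A ribosome joins a small subunit, which reads the mRNA, to a large subunit, which links the amino acids. Nearly every ribosomal protein is present in a single copy per ribosome, and cells keep the supply of the proteins in balance. Their mRNAs usually begin with a C followed by a run of pyrimidines, the terminal oligopyrimidine (TOP) tract, through which the kinase complex mTORC1 sets their translation. In neurons, ribosomes and ribosomal protein mRNAs are found in the cell body and also in dendrites and axons.

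The start sites are shown first because some sequence features there were more frequent in these genes than over all promoters. RefSeq (build GRCr8) gave a promoter for 67 of the 83 genes. Of these, 35 (52.2%) had C as the first transcribed base, against 24.2% of 27457 promoters of all genes. In 23 (34.3%) that C was followed by 4 further C or T bases, against 2.6% of all promoters. A run of at least 8 bases that are each C or T lay between 10 bases before and 20 bases after the start, on the coding strand, in 40 (59.7%), against 10.6% of all promoters. The 8-base motif TCTCGCGA, on either strand of the promoter window, was found in 11 (16.4%) against 0.9%, and CCGGAAG in 19 (28.4%) against 9.2%. TATAAA occurred in 10.4% of the ribosomal protein promoters and 14.3% of all promoters. The 7 genes below were chosen because the values that follow turn on them. Each line gives 50 bases before and 30 bases after the start, with the longest run of C or T near the start in capitals.
Rps16 (chr1:92770608-92770687, plus strand): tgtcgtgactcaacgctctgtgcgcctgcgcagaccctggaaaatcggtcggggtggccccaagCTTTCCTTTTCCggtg
Rpl13 (chr19:68062464-68062543, plus strand): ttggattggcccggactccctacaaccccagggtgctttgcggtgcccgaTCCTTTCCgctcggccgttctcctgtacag
Rpl10a (chr20:6390483-6390562, plus strand): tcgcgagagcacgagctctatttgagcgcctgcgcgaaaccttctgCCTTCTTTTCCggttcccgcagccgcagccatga
Rpl17 (chr18:70856226-70856305, plus strand): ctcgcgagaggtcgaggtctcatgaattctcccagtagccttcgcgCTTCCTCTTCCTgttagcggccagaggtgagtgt
Rpl22 (chr5:168117911-168117990, plus strand): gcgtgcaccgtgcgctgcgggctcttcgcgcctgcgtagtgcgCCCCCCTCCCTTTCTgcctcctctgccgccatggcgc
Rpl22l1 (chr2:113683146-113683225, plus strand): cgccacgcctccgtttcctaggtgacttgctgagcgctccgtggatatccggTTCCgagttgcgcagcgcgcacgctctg
Rps6 (chr5:106420511-106420590, minus strand): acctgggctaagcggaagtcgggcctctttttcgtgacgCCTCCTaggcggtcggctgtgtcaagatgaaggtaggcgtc
In Rpl10a, Rpl17 and Rpl22 the run spans the annotated start, in Rpl13 it begins at the first base, and in Rps16 it begins at base 15. Between 10 bases before and 20 bases after its start, the paralogue Rpl22l1 had no run longer than 4 bases. Among the 12 genes with a promoter and a probe that differed between the lines, 5 had a run of at least 8, as did 35 of the other 55. C was the first base in 7 of the 12 and 28 of the 55, and 4 further C or T bases followed it in 4 and 19. TCTCGCGA was found in 3 and 8, and CCGGAAG in 2 and 17. These splits went in different directions and were not tested. These matches describe letters at annotated starts and not measured transcripts.

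The unit of signal is log2 after scaling, with 0 at the 75th percentile of the non-control spots of that array, and each difference is SPORTS minus wild type on this scale. Each difference comes from limma's moderated test, fitted over all 20658 tested probes with Benjamini-Hochberg adjustment and a threshold of 0.05. Of the 144 probes, 140 for 80 genes passed the filter on dim signal, and 137 of them were well above background on all 6 arrays. The 4 that did not pass were the only probes of Rps12l4, Rpl27l2 and Rpl-1 and 1 of 4 probes of Rpl36a. No spot was saturated. The number of arrays limits the precision, and p-values measure only the spread between these samples. RefSeq lists 908 entries named as pseudogenes of ribosomal protein genes, and 74 of the 83 genes have at least 1 of them. How far such copies share signal with a probe was not tested. SPORTS replicate 1 stood apart in markers of 2 brain structures. Its 7 tested cerebellar markers summed to 4.19 in linear signal, against 1.94 and 2.07 in the other SPORTS arrays and 1.80 to 1.95 in wild type. Its 8 choroid plexus and ependymal markers summed to 68.0, against 128 and 145 in the other SPORTS arrays and 131 to 139 in wild type. Ttr makes up most of that sum, with 6.06 in SPORTS replicate 1, 6.98 and 7.16 in the other SPORTS arrays and 7.02 to 7.11 in wild type. Folr1, Kl and Clic6 were also lowest in that array. Foxj1 and Tmem212, at -2.50 and -2.83, were close to wild type (-2.46 to -2.39 and -2.80 to -2.44). Otx2 at -1.16 lay within wild type, and Drc12 at -3.36 above it (-3.96 to -3.78). Counts and calls of the ribosomal protein probes without SPORTS replicate 1 are given below. The differences of the related lists and of the markers are given only with it included. In brain tissue, fewer cells of a type and less RNA per cell cannot be told apart.

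Most ribosomal protein transcripts differed little between SPORTS and wild type brain. Of 140 tested probes, 15 were higher and 5 lower in SPORTS, and 120 did not pass. In all, 14.3% of the probes were called, against 21.1% of all tested probes. Called higher were 10.7%, against 11.1% of all probes, and called lower 3.57%, against 10.1%. The median difference was 0.05, against -0.0016 over all tested probes, and 109 of the 140 differences were above 0. Of the 140 differences, 99 (70.7%) lay within 0.1 of 0 on the log2 scale, against 47.9% of all other tested probes. The median absolute difference was 0.05, against 0.11 for the others. The SE was also smaller, with a median of 0.04 against 0.06. For 114 of the 120 probes that did not pass, the 95% confidence interval of the difference lay inside a 1.2-fold change in either direction. The groups did not overlap for 57 probes (40.7%), close to the 41.9% of all tested probes.

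**Figure D1:**
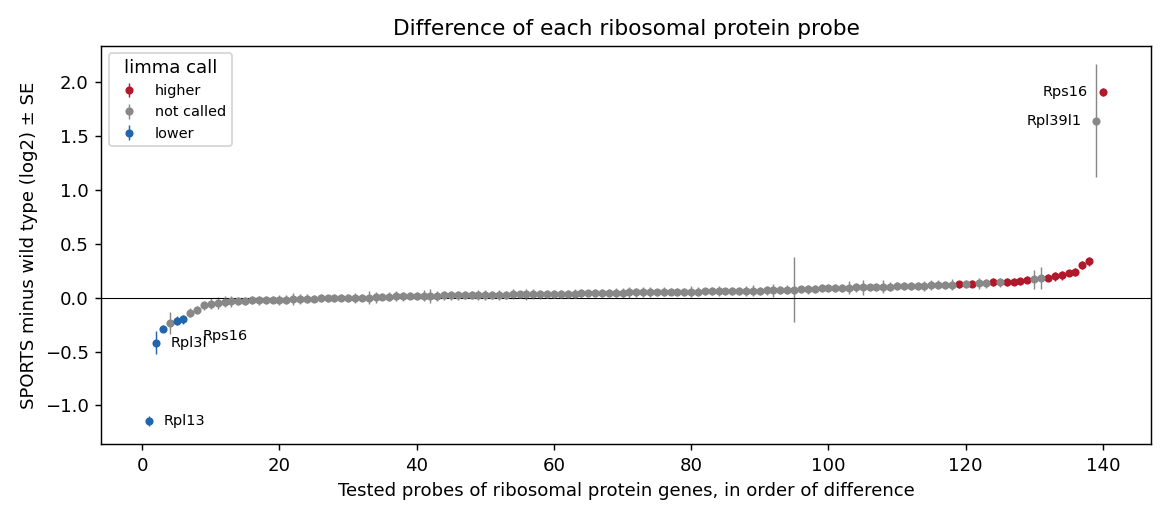
The 140 tested ribosomal protein probes in order of their difference (SPORTS minus wild type, log2, y axis) with the SE of the fit as bars; red points were called higher, blue points lower and grey points not called. Most points lie close to 0, while a probe of Rps16 at 1.91 and the probe of Rpl13 at -1.15 stand far from the rest, and Rpl39l1 at 1.64 has a wide error.

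**Figure D2:**
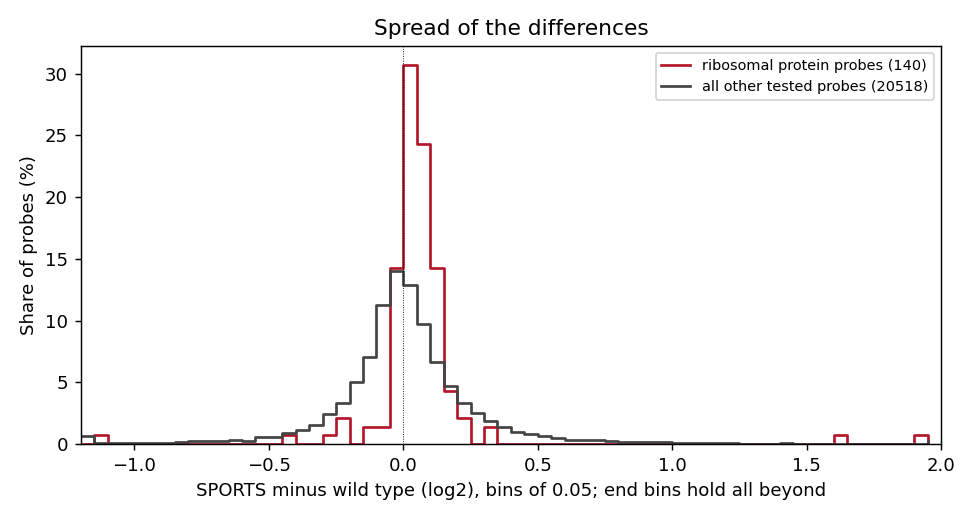
The share of probes (%, y axis) in bins of 0.05 of the difference (SPORTS minus wild type, log2, x axis) for 140 ribosomal protein probes (red) and 20518 other tested probes (grey). The ribosomal protein probes form the narrower peak, with its centre slightly above 0.

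The medians of both subunits were alike, and the difference between them was not tested. The 84 tested probes of the large subunit had a median difference of 0.05, with 10 higher and 4 lower in SPORTS. The 51 probes of the small subunit had a median of 0.05, with 5 higher and 1 lower. None of the 5 P-stalk probes passed, and their median was -0.01. Counted by gene, with the brightest tested probe standing for each, 10 of 80 genes were higher and 4 lower, against 12.9% and 11.4% of all 11033 genes with a symbol (24.3% in either direction). Rps16 counts as lower here, because its falling probe is the brighter one.

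The median deviation of single arrays reached the size of the median difference. The median deviation of the ribosomal protein probes from their own mean over the 6 arrays was 0.06, -0.0002 and 0.02 in SPORTS replicates 1 to 3 and -0.01, -0.06 and -0.0035 in wild type replicates 1 to 3. SPORTS replicate 1 was thus the highest, wild type replicate 2 the lowest, and the other 4 arrays lay close together. The number of calls depended on the scaling. With the median of each array subtracted in place of the 75th percentile, 10 probes were higher and 7 lower, against 9.45% and 12.8% of all probes. With quantile normalisation 22 were higher and 5 lower, against 11% and 11.1%. The spots over which the 75th percentile is taken also mattered, in alternatives tried after the data were seen. Taken over averaged probes it gave 10 higher and 6 lower probes, over all spots with controls 10 and 7, and over probes above background on all arrays 17 and 5. The shares of all probes were then 9.72% to 11.9% higher and 9.91% to 12.6% lower. The median difference stayed between 0.02 and 0.06 in all of the alternatives, and it lay 0.03 to 0.07 above the median of all tested probes.

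The position of an array on the slide moved with the lines. Slide row 2 held all SPORTS arrays and wild type replicate 3, while row 1 held wild type replicates 1 and 2. In a fit with the row as a block, called the blocked fit here, 1 probe was higher and 3 were lower in SPORTS, against 3.59% and 4.14% of all probes in that fit (7.73% in either direction), and the median difference was 0.03. In that fit a difference rests on 1 wild type array. Within row 2 alone, 1 probe was higher and 2 were lower, against 2.56% and 2.90% of all probes. Without SPORTS replicate 1, 2 or 3 the number of higher probes was 7, 5 and 7, and without wild type replicate 1, 2 or 3 it was 6, 6 and 8. The number of lower probes in the same order was 4, 2 and 3, then 5, 4 and 2. Over all probes the shares called fell likewise, to 6.01% to 7.87% higher and 4.64% to 7.54% lower. The median difference without SPORTS replicate 1 was 0.03.

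The largest difference came from Rps16, whose protein lies in the head of the small subunit near the site of decoding, and its 2 probes moved in opposite directions. Probe A_64_P068858 had 2.11, 2.15 and 2.17 in SPORTS replicates 1 to 3, against 0.19, 0.28 and 0.25 in wild type replicates 1 to 3. All SPORTS arrays were far above all wild type arrays, by 1.91 ± 0.04 (SE) or 3.75-fold (limma adjusted p = 2.7e-05). Probe A_64_P088404, assigned to the same transcript NM_001169146, had 4.63, 4.58 and 4.61 in SPORTS, against 4.91, 4.88 and 4.90 in wild type. Here all SPORTS arrays were below all wild type arrays, by -0.29 ± 0.03 (limma adjusted p = 0.00356). The gap between the probes within an array, the first minus the second, was -2.46 ± 0.05 in SPORTS and -4.66 ± 0.06 in wild type (SD, n = 3 each), and it differed by 2.20 between the lines.

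Both Rps16 probes kept their direction in the blocked fit, at 1.90 (limma adjusted p = 0.00123) and -0.29 (limma adjusted p = 0.0394). Over all alternatives the first difference ran from 1.82 to 1.93 and the second from -0.32 to -0.28. The second lost its call within slide row 2 alone (limma adjusted p = 0.0697). The array therefore gives no single direction for Rps16. RefSeq lists 9 pseudogenes named after it, and the sequences of the probes were not used here.

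Rpl13, a protein of the large subunit, had the largest fall. Its only probe, A_64_P029673, had 4.43, 4.46 and 4.40 in SPORTS, against 5.65, 5.53 and 5.55 in wild type. No array of SPORTS came within 1 log2 unit of a wild type array, and the difference was -1.15 ± 0.05 (SE), a 2.21-fold fall (limma adjusted p = 0.000141). It kept its call in all alternatives, with differences from -1.18 to -1.11, and was -1.12 in the blocked fit (limma adjusted p = 0.00365). No second probe was available to set beside it, and 15 RefSeq pseudogenes carry its name. In the gene order of the RefSeq list the neighbouring gene Spg7, a mitochondrial protease gene, fell by 0.65 ± 0.05 (limma adjusted p = 0.00116). Spata33, 5 genes away on the other side, fell by 0.37 ± 0.08 (limma adjusted p = 0.0257). Cbfa2t3, a transcriptional corepressor gene 5 genes away on the side of Spg7, rose by 1.13 ± 0.06 (limma adjusted p = 0.000299). Of the 10 nearest genes 5 were tested, and these neighbours were chosen after the values of Rpl13 were seen. The other tested neighbours, Cdh15 and Chmp1a, differed by -0.11 ± 0.09 and -0.17 ± 0.05 and did not pass (limma adjusted p = 0.437 and 0.0775). Over all genes with a symbol, 24.3% were called in either direction. An effect of position was not tested. None of 6 tested neighbours of Rps16 passed (lowest limma adjusted p = 0.233).

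**Figure D3:**
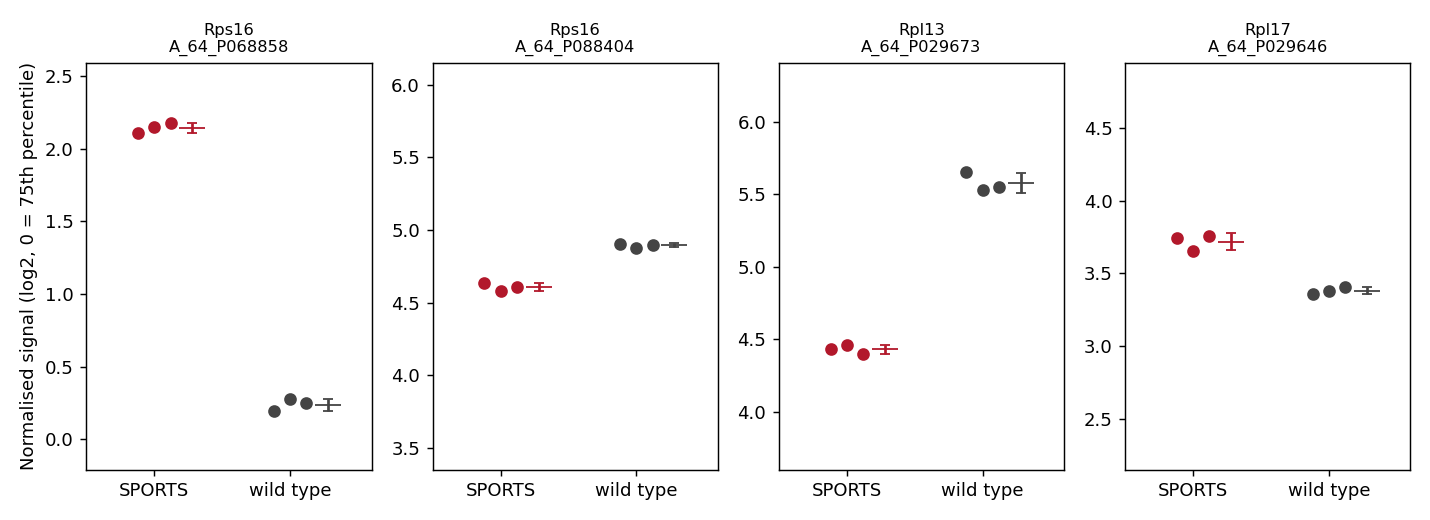
Normalised signal (log2, y axis) of 4 probes in the 3 SPORTS arrays (red) and the 3 wild type arrays (grey), with the mean and SD beside the points; all panels span the same number of log2 units. The Rps16 probes move in opposite directions, Rpl13 is lower in SPORTS by 1.15 and Rpl17 is higher by 0.34.

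Rpl10a, which forms the mobile L1 stalk of the large subunit, fell in both of its probes. Probe A_64_P029516 had 4.26, 4.17 and 4.16 in SPORTS, against 4.41, 4.40 and 4.43 in wild type, a difference of -0.21 ± 0.04 (SE; limma adjusted p = 0.0161). Probe A_64_P041238 had 3.88, 3.80 and 3.83 in SPORTS, against 3.99, 4.06 and 4.06 in wild type, a difference of -0.20 ± 0.04 (limma adjusted p = 0.0197). The groups did not overlap in either probe. In the blocked fit the differences were -0.23 and -0.22 and the calls ended (limma adjusted p = 0.0979 and 0.1). Without SPORTS replicate 2 or 3 or wild type replicate 3 both calls also ended, and that of the second probe without wild type replicate 2, with limma adjusted p up to 0.0825. Rpl3l, a paralogue of Rpl3 known from skeletal muscle and heart, fell by 0.42 ± 0.11 (limma adjusted p = 0.0441). Its signal was dim, above background on 2 of 3 SPORTS arrays and on 3 of 3 wild type arrays. It thus passed the filter only through the wild type group, where it was higher. Of the 5 lower probes, 4 remained under the stricter filter, above background on all 6 arrays, against 10.4% of all probes then lower. Rpl3l was not tested under that filter. It was not called in the blocked fit (limma adjusted p = 0.168) or without any 1 array but SPORTS replicate 3 (limma adjusted p up to 0.127), and its difference ran from -0.51 to -0.12 over the alternatives.

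The rises that both probes of a gene shared were those of Rpl17 and Rpl23a, 2 proteins that line the tunnel or its exit through which the new polypeptide leaves. Rpl17 probe A_64_P029646 had 3.74, 3.65 and 3.76 in SPORTS, against 3.36, 3.38 and 3.40 in wild type, a rise of 0.34 ± 0.04 (SE; limma adjusted p = 0.00445). Its other probe had 3.57, 3.58 and 3.56 in SPORTS, against 3.37, 3.32 and 3.35 in wild type, a rise of 0.23 ± 0.03 (limma adjusted p = 0.0069). All SPORTS arrays were above all wild type arrays in both probes. Rpl23a probe A_64_P007169 had 2.26, 2.30 and 2.34 in SPORTS, against 2.01, 1.98 and 2.01 in wild type, a rise of 0.30 ± 0.04 (limma adjusted p = 0.00429). Its other probe rose by 0.19 ± 0.03 (limma adjusted p = 0.0134). In the blocked fit the Rpl17 differences were 0.31 and 0.23 (limma adjusted p = 0.0535 and 0.0639) and those of Rpl23a 0.29 and 0.16 (limma adjusted p = 0.0502 and 0.116), so that no call was kept. The second Rpl23a probe also lost its call without SPORTS replicate 2 (limma adjusted p = 0.0626).

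Rpl22l1 and Rpl22 are paralogues that can take the same place in the large subunit. Rpl22l1 probe A_64_P053916 had 3.55, 3.62 and 3.60 in SPORTS, against 3.35, 3.34 and 3.37 in wild type, a rise of 0.24 ± 0.04 (SE; limma adjusted p = 0.00793). Its second probe differed by 0.07 ± 0.06 and did not pass (limma adjusted p = 0.494), and its groups overlapped. The 2 probes of Rpl22 differed by 0.02 ± 0.04 and 0.03 ± 0.04 (limma adjusted p = 0.814 and 0.633). The Rpl22l1 call ended in the blocked fit (difference 0.22, limma adjusted p = 0.0804).

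Smaller rises that passed were those of Rpl11, Rpl36a, Rpl36, Rps26, Rps4x, Rps25 and Rps3a. Rpl11, which together with Rpl5 can bind the p53 regulator Mdm2, had 4.90, 4.89 and 4.91 in SPORTS, against 4.64, 4.67 and 4.76 in wild type, a rise of 0.21 ± 0.04 (SE; limma adjusted p = 0.0219). The 3 tested probes of Rpl36a, a large subunit protein gene on the X chromosome, rose by 0.20, 0.17 and 0.14. Rps26, which lies by the channel where mRNA leaves the small subunit, rose by 0.15 ± 0.03 (limma adjusted p = 0.0311). The X-linked Rps4x rose by 0.14 ± 0.04 (limma adjusted p = 0.0389), Rps25 by 0.13 ± 0.03 (limma adjusted p = 0.0442) and Rps3a by 0.12 ± 0.03 (limma adjusted p = 0.0491). Rpl36 rose by 0.15 ± 0.03 in 1 probe (limma adjusted p = 0.0253), while its second probe differed by -0.02 ± 0.05 (limma adjusted p = 0.818). All 7 genes lost their calls in the blocked fit (limma adjusted p from 0.0968 for Rps26 to 0.244 for Rps25). Rpl11 kept its call only without wild type replicate 3, a probe of Rpl36a only without SPORTS replicate 3, and the other probes lost theirs whichever array was left out (limma adjusted p up to 0.146).

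**Figure D4:**
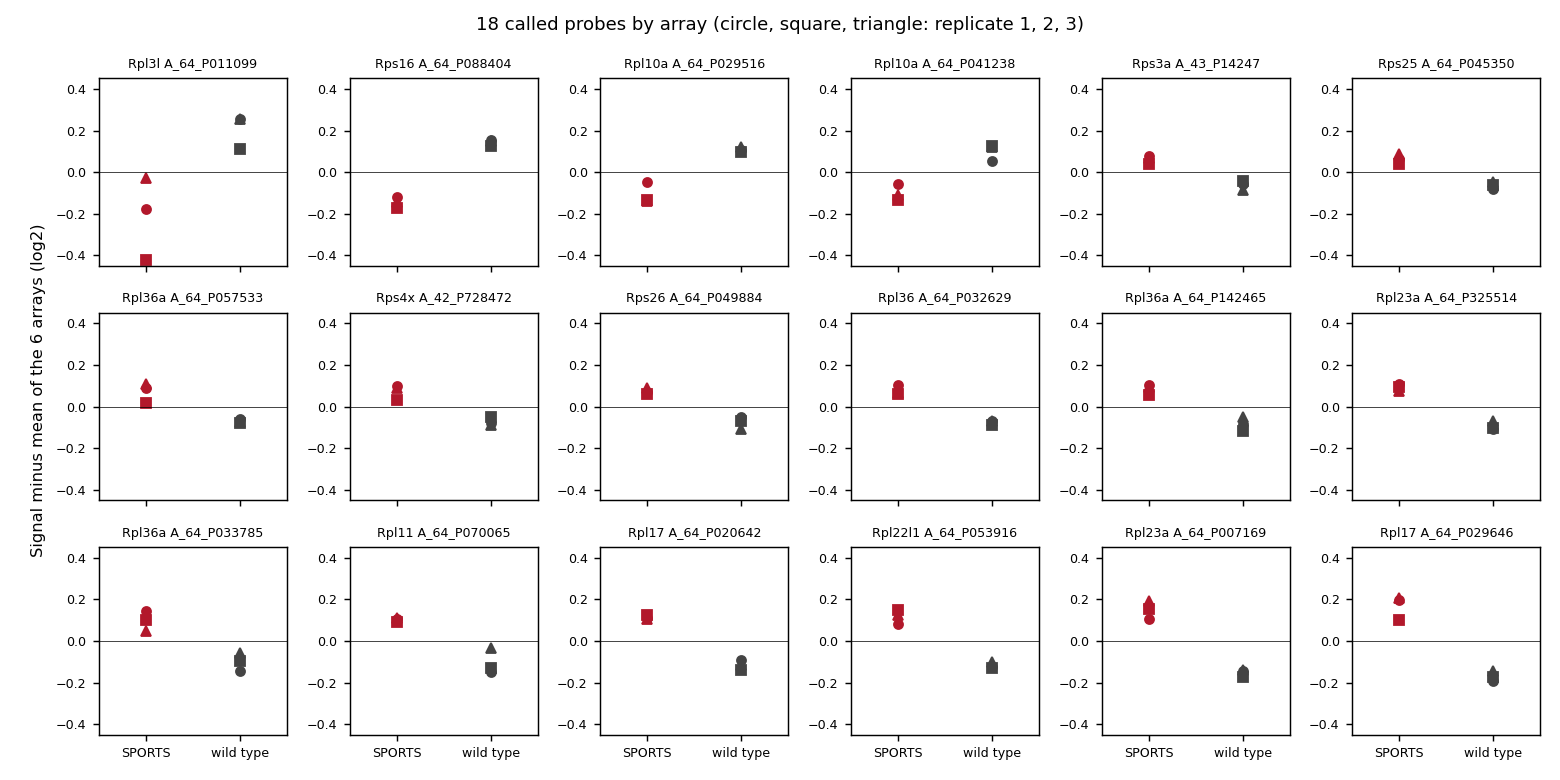
Signal minus the mean of the 6 arrays (log2, y axis) in 18 called probes, all but the first Rps16 probe and Rpl13, with SPORTS arrays in red and wild type arrays in grey; circles, squares and triangles are replicates 1, 2 and 3. In each panel the 3 SPORTS arrays lie on one side of the 3 wild type arrays.

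Probes of 1 gene mostly gave similar differences between the lines. Of 47 genes with more than 1 tested probe, 40 had all their probes within 0.1 of each other in the difference, 5 had a gap of 0.1 to 0.2, and 2 had a wider gap. The median gap was 0.04. Most tested ribosomal protein probes lay within 0.1 of 0 (70.7%), so small gaps do not by themselves show that probes of a gene agree. All probes were called the same way in 4 genes, Rpl10a, Rpl17, Rpl23a and Rpl36a, and no probe was called in 40. In the remaining 3 genes, Rps16, Rpl36 and Rpl22l1, the probes disagreed, and only in Rps16 were they called in opposite directions. The widest gap after Rps16 was that of Rps4y2, with differences of 0.18 ± 0.11 and -0.24 ± 0.10 (SE), and neither passed (limma adjusted p = 0.283 and 0.156). Without wild type replicate 1 the second was called lower at -0.33 (limma adjusted p = 0.0495).

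Among members without a call, the P-stalk genes recruit the elongation factors to the ribosome. Rplp0 differed by 0.06 ± 0.04 and -0.01 ± 0.04 (SE) in its 2 probes, Rplp1 by -0.06 ± 0.05 and Rplp2 by 0.02 ± 0.04 (limma adjusted p from 0.313 to 0.91). Rplp1l1, named after Rplp1, differed by -0.12 ± 0.04 (limma adjusted p = 0.0997), and was called lower in 3 alternatives (lowest limma adjusted p = 0.0375). Rpsa, a small subunit protein also described as a laminin receptor precursor, differed by 0.10 ± 0.07 and 0.05 ± 0.05 (limma adjusted p = 0.392 and 0.563). Rps6, the substrate of the S6 kinases, had 4.26, 4.20 and 4.26 in SPORTS, against 4.11, 4.18 and 4.13 in wild type, in its brighter probe. The difference was 0.10 ± 0.04 (limma adjusted p = 0.117), and that of the second probe was 0.09 ± 0.06 (limma adjusted p = 0.357). Rpl39l1, named after Rpl39, had the largest difference that did not pass, with -5.76, -4.17 and -4.05 in SPORTS, against -6.91, -6.09 and -5.90 in wild type. It was above background on all SPORTS arrays and on 1 wild type array. It thus passed the filter only through SPORTS, the higher group. Its difference of 1.64 ± 0.52 (limma adjusted p = 0.0797) lay between 0.56 and 2.19 across alternatives. Without SPORTS replicate 1, its lowest SPORTS array, it was called higher at 2.19 (limma adjusted p = 0.0189). A dim probe of Rpl28, A_44_P778019, changed sign with the treatment of the arrays. It had -4.99, -5.02 and -5.02 in SPORTS, against -5.34, -5.54 and -4.37 in wild type, where 2 of 3 arrays were above background, and was at 0.07 ± 0.30 over all arrays. In the blocked fit it was at -0.64 (limma adjusted p = 0.0239) and without wild type replicate 3 at 0.43 (limma adjusted p = 0.0272).

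Genes that act with the ribosomal proteins were counted by 1 probe per gene, and their counts stand against 12.9% higher and 11.4% lower over all genes with a symbol. The other ribosome components Fau and Rack1 differed by 0.05 ± 0.05 and 0.08 ± 0.03 (SE), and neither passed (limma adjusted p = 0.582 and 0.138). Of 15 other genes with TOP mRNAs, 1 was higher and 1 lower (median 0.05). The nascent chain binding factor gene Btf3 rose by 0.18 ± 0.04 and the histone chaperone gene Nap1l1 fell by 0.33 ± 0.05. Of 40 tested ribosome biogenesis genes, 2 were higher and 2 lower (median 0.0037). The small nucleolar RNA-binding protein genes Rrp9 and Gar1 differed by 0.44 ± 0.04 and -0.46 ± 0.04, the nucleolar GTPase genes Gnl3 and Gtpbp4 by 0.17 ± 0.04 and -0.48 ± 0.06. A difference in the blocked fit rests on 1 wild type array. There Rrp9, Gar1 and Gtpbp4 kept their calls, at 0.37, -0.46 and -0.51, while Btf3, Nap1l1 and Gnl3 did not. Polr1a, not called over all arrays, differed by -1.44 in that fit. Its wild type values were -2.86, -2.77 and -1.49 in replicates 1 to 3.

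Of 27 tested initiation factor genes, none was higher and 3 were lower (median -0.03). Eif3c, a core subunit of initiation factor eIF3, had 2.42, 2.43 and 2.41 in SPORTS, against 3.20, 3.19 and 3.24 in wild type, a fall of 0.79 ± 0.03 (SE; limma adjusted p = 0.000143). Its groups were far apart, and in the blocked fit the difference was -0.82 (limma adjusted p = 0.00323). Eif2b3 and the helicase gene Eif4a1 fell by 0.20 ± 0.04 and 0.19 ± 0.04, and neither passed with the block. Of 21 genes of mTORC1, the S6 kinases and other regulators, 3 were higher and none lower (median -0.01). These were Eif4ebp1, a repressor of cap-dependent initiation (0.30 ± 0.07), the elongation factor kinase gene Eef2k (0.25 ± 0.05) and Myc (0.24 ± 0.04), and none passed with the block. The S6 kinase genes Rps6kb1 and Rps6kb2 differed by -0.16 ± 0.05 and -0.20 ± 0.06 and did not pass (limma adjusted p = 0.0892 and 0.0663). Over all 11033 genes with a symbol 12.9% were higher and 11.4% lower, and the median was 0.01.

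**Figure D5:**
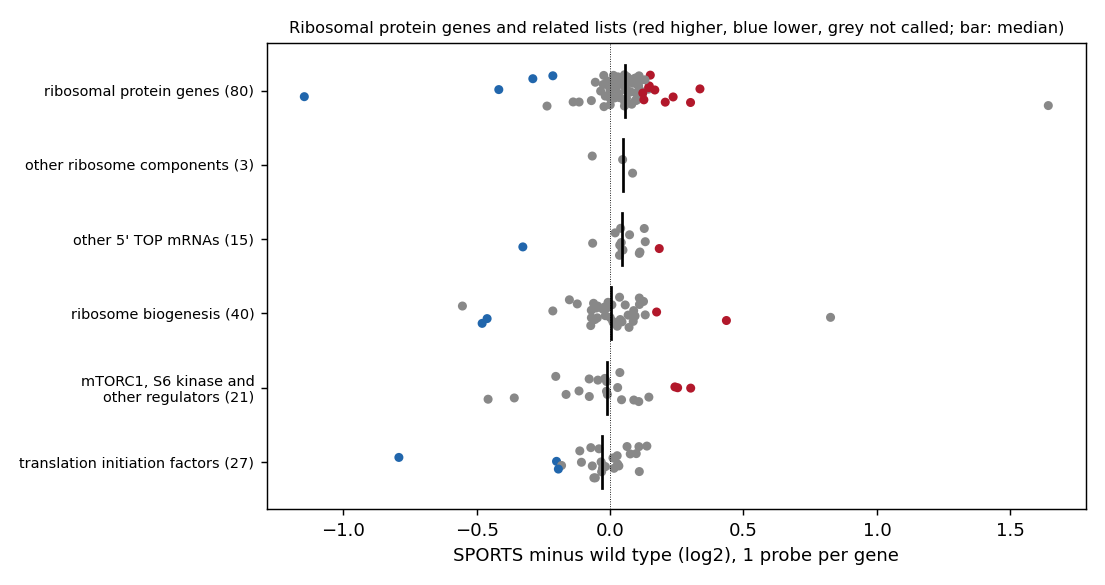
Difference (SPORTS minus wild type, log2, x axis) of each gene, 1 probe per gene, in the ribosomal protein genes and 5 related lists, with the number of tested genes in brackets; red was called higher, blue lower, grey not called, and bars are medians. The medians of all lists lie within 0.06 of 0, and Rpl13 at -1.15 and Eif3c at -0.79 lie farthest below it.

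The label brain was checked against marker lists, counted by 1 probe per gene. Their counts stand against 12.9% higher and 11.4% lower over all genes with a symbol. Of 7 tested neuronal markers 1 was higher and 2 lower in SPORTS (median -0.10), and of 8 astrocyte and 8 oligodendrocyte markers 3 and 2 were higher and none lower (medians 0.17 and 0.07). Of 8 fibroblast and meningeal markers 6 were higher and 1 lower (median 0.74), with a summed linear signal of 15.4 to 18.0 in SPORTS and 9.83 to 11.9 in wild type. All 8 striatal markers were lower (median -2.12), summing to 7.92 to 9.17 in SPORTS and 27.5 to 32.2 in wild type. Of the 7 cerebellar markers none was called (median 0.42), and of the 8 choroid plexus and ependymal markers 1 was higher (median -0.19). Pcp2, a Purkinje cell gene, had -0.51, -3.56 and -3.58 in SPORTS replicates 1 to 3, against -3.75, -3.66 and -3.54 in wild type. Of 8 microglial markers 1 was lower, and of 8 endothelial and blood markers 1 was higher. The part of these differences in the ribosomal protein values was not tested.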

How the data were processed

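Brain RNA of 6 rats was hybridised to 1 single-colour Agilent array each, and replicates are numbered in the order of deposit. Per the file headers, Agilent Feature Extraction 10.10.1.1 made the intensity values, with background subtraction and detrending within the array and no scaling between arrays. A table deposited for the whole series gives those intensity values multiplied by a factor for each array (1.38 to 1.47), with 0 columns of other samples. The files hold no gene symbols, so members were found by transcript accession in the RefSeq list. Probes known only by other identifiers were not used here.

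Outlier-flagged spots (3075 values, 3 of them of members) were left out, spots of a probe averaged as log2, and the 75th percentile of 58717 non-control spots (1530 to 1628 in linear units) subtracted. This definition of the percentile was settled after the data were seen, to match earlier processing of these arrays; 4 others were tried. Normexp used the median spot signal. Testing required that a share above 0.5 of the spots of a probe exceed background clearly in every array of at least 1 group. SPORTS and wild type were compared with limma 3.58.1 in R 4.3.3, two-sided. The procedure was tested on simulated data, but no result of that is given here and no call rests on it. Genes were counted by their brightest tested probe. Named were up to 12 called genes per direction with the largest differences, genes with disagreeing probes, the paralogues, the P-stalk genes, Rpsa, Rps6 and Rpl22, and up to 4 called genes per related list; Rpl28, Rpl39l1, Rps28, Rplp1l1, Pcp2, Spg7, Spata33, Cbfa2t3, Rps6kb1 and Rps6kb2 were chosen after their values were seen. Members and lists were chosen with earlier results of these data known. Alternatives concerned scaling, background correction, the deposited table, the dim filter, outlier spots, the variance model, the slide row, the probe for a gene and each array left out. One gene of a related list is not reported here.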

Additional observations from a re-analysis of the deposited data

How the results depend on the processing

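Of 140 ribosomal protein probes, 15 were higher and 5 lower in SPORTS. Leaving out 1 array gave 5 to 8 higher and 2 to 5 lower probes, and 3 to 4 higher and 2 to 4 lower genes in place of 10 and 4, with fewer arrays in the fit. The slide row as a block gave 1 and 3 probes and 0 and 2 genes, and slide row 2 alone gave 1 and 2 probes and 0 and 1 genes. No filter on dim probes, which adds dim probes to the adjustment, gave 6 and 3 probes and 3 and 2 genes. These probes were 4.17% and 2.08% of the members, against 4.06% and 3.65% of all probes. A trended and robust variance model gave 26 higher probes (18.6%, against 12.8% of all probes) and 18 higher genes. Its 6 lower probes were 4.29%, against 12% of all probes. Subtracting the array median gave 6 higher genes. So did the 75th percentile of averaged probes or of all spots with controls, both chosen after seeing the data. The causes of these shifts were not tested. The median difference ran from 0.03 to 0.06 with 1 array left out and from 0.02 to 0.05 otherwise. The deposited table differs from the main values only by a factor for each array. The scaling removes that factor, so its result was fixed in advance. Quantile normalisation, normexp, the stricter dim filter and kept outlier spots left all counts within 1.5 times. Averaging over probes per gene did the same, as did the percentile over spots without outliers or over probes above background. Of 20 called probes, 2 (the first Rps16 probe and Rpl13) kept their calls in every alternative, and no called probe changed sign. The uncalled Rpl28 probe A_44_P778019 was called lower at -0.64 in the blocked fit and in row 2 alone, where a difference rests on 1 wild type array, and higher at 0.43 without wild type replicate 3. In all, 18 of 120 uncalled probes gained a call in at least 1 alternative, 14 of them only as higher. The matching share over all uncalled probes of the array was not computed, so this count has nothing to stand against. Rpl39l1 gained a call without SPORTS replicate 1, Rps4y2 without wild type replicate 1, and Rps28 in 7 and Rplp1l1 in 3 alternatives. Among the probes of named genes, which are only a part of the 120, a probe called in neither setting changed sign in 19 further cases. Other uncalled probes changed sign too, such as those of Rpl41 (-0.07 to 0.04 over the alternatives) and Rpl10 (A_44_P513994, -0.01 to 0.06). No paired analysis was possible because the animal numbers in the sample titles have only 1 number in common between the lines, and no label gives a litter or batch.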
